A study of Rattus norvegicus with 9 samples.

Results

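The SLC25 family is the largest set of transporters of the mitochondrial inner membrane, and its transcripts were followed here in rat nucleus pulposus cells, which fill the soft centre of the intervertebral disc. Members were the protein-coding genes of the counts table whose symbol begins with Slc25a, together with Ucp1, Ucp2, Ucp3, Mtch1 and Mtch2. This gave 53 genes, 48 of them with an Slc25a symbol, out of 22324 genes in all, of which 17949 were protein-coding. Poly(A) RNA of primary cells with a wild-type genotype was sequenced in 9 libraries, in 3 groups of 3. BNPMT cells were labelled as cells in doxorubicin-induced senescence that received an intervention named BNPMT, a name that the labels do not expand and for which they give neither dose nor timing. SEN cells had been driven into senescence by the DNA-damaging drug doxorubicin, given at 200 nM over 24 h, with another 6 days in new medium. NC cells were taken as the untreated control from their title and the series' design text, although the protocol naming doxorubicin stands on all 9 samples. The culture medium, high in glucose and with 10% serum, was common to all groups. In its title the study names stability of the outer mitochondrial membrane and the sequestration of DNA outside cells.

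SLC25 carriers are encoded in the nucleus, made in the cytosol and inserted into the inner membrane by a dedicated import route through the TIM22 complex. Each moves a small set of molecules, and together they connect the matrix with the cytosol for nucleotides, phosphate, carboxylates, amino acids, cofactors, iron and acylcarnitines. A few members sit elsewhere: Mtch1, Mtch2 and Slc25a46 are proteins of the outer membrane, and Slc25a17 is peroxisomal. Nucleus pulposus cells live in an avascular, oxygen-poor tissue and are known for a strongly glycolytic metabolism.

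Total counts per library were 35094282 to 41971877 in BNPMT, 31206834 to 38391586 in SEN and 34514440 to 41873790 in NC. The labels do not say that replicates were separate cultures, so p-values cover only how far these libraries differ from each other, possibly for technical reasons. Of the nucleus pulposus markers, the matrix genes Acan and Col2a1 averaged 322 and 1960 CPM (counts scaled to a common library total) in BNPMT, 681 and 6490 CPM in SEN and 587 and 4570 CPM in NC, whereas the transcription factor genes Pax1 and Foxf1 averaged 149 and 29.2 CPM in BNPMT, 52.7 and 17.1 CPM in SEN and 135 and 30.6 CPM in NC. Of the 8 nucleus pulposus markers tested, 6 were called higher and 2 lower in SEN against NC. The notochordal genes Tbxt and Krt18 were below 0.2 CPM in every group mean. The summed level of 5 smooth muscle markers was 2550 to 2800 CPM in BNPMT, 1330 to 1500 CPM in SEN and 4460 to 4500 CPM in NC. That of 4 macrophage markers was 0.513 to 0.81, 23.2 to 26.4 and 0.263 to 1.16 CPM in the same groups, carried in SEN by the lysosomal gene Cd68, at 22.6 CPM, with Adgre1 at 0. Lyz2 and Csf1r averaged 0.0652 and 0.0319 CPM in BNPMT, 1.55 and 0.403 CPM in SEN and 0.236 and 0.0605 CPM in NC. The summed level of 4 endothelial markers was 0.453 to 0.969, 4.5 to 4.9 and 0.321 to 0.454 CPM, carried in SEN by Pecam1, at 4.04 CPM, with Cdh5 at 0.0174 CPM. In SEN against NC, 2 of 2 tested macrophage markers and 2 of 3 tested endothelial markers were called higher, and 0 lower. Of all tested genes, 37.6% were called higher and 38.5% lower in that comparison. Whether these shifts have a part in the carrier values was not tested. In bulk RNA, a change in the share of a kind of cell and a change in RNA per cell cannot be told apart. Within their groups, libraries SEN 1 and BNPMT 1 were set off from the others, with the opposite sign of a trend with transcript length. The Spearman correlation across genes between a library's deviation from its group and transcript length was -0.42 for SEN 1 and 0.51 for BNPMT 1. In SEN 2 and SEN 3 it was 0.26 and 0.23, and in BNPMT 2 and BNPMT 3 -0.43 and -0.32. NC libraries lay at -0.20 to 0.15. These are correlations across genes of one library, which are not independent replicates.

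Promoter sequences are shown for Slc25a25, Slc25a33 and Slc25a13, because the results on nucleotide and aspartate carriers turn on these genes. RefSeq's promoter table for the rat build GRCr8, a newer build than the mRatBN7.2 named in the submitters' processing notes, held 44 of the 53 members, matched by gene identifier. Members without a promoter there, which were not searched for motifs, included Slc25a26, Slc25a30, Slc25a36, Slc25a37 and Slc25a46. The 180 bases before the annotated start are printed 5′ to 3′ on the gene's strand, with matches to searched motifs in capitals. They lie at chr3:36116582-36116761 for Slc25a25, chr5:165502974-165503153 for Slc25a33 and chr4:35328361-35328540 for Slc25a13, each on the minus strand.
Slc25a25: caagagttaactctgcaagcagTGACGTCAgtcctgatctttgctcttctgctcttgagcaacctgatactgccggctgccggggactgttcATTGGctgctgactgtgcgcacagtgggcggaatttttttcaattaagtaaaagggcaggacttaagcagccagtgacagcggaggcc
Slc25a33: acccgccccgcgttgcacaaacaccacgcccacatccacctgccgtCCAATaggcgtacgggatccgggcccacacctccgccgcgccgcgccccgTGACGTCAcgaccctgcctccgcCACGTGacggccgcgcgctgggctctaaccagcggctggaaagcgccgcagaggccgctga
Slc25a13: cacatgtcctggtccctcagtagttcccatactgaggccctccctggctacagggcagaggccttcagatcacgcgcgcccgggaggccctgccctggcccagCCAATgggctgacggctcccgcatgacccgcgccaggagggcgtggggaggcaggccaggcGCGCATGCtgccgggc

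The capitals mark, in Slc25a25, a cyclic AMP response element (CRE, TGACGTCA) 158 bases before the start and a CCAAT box read on the opposite strand 88 bases before it. In Slc25a33 they mark a CCAAT box at 134 bases, a CRE at 84 bases and an E-box (CACGTG) at 61 bases. In Slc25a13 they mark a CCAAT box at 77 bases and an NRF1 motif (GCATGCGC, on the opposite strand) at 16 bases. Motifs were searched on both strands over 250 bases before the start. A CRE stood in 2 of 44 carrier promoters (4.55%), those of Slc25a25 and Slc25a33, and in 2.03% of 19005 protein-coding promoters. The CCAAT box stood in 47.7% of carrier promoters and 35.5% of all, the E-box in 11.4% and 6.38%, the NRF1 motif in 6.82% and 2.95%, AP-1 (TGANTCA) in 2.27% and 5.82%, and TATAAA in 6.82% and 12.3%. The heat shock element searched as GAANNTTC stood in 0 of 44 carrier promoters and 6.56% of all. Carrier promoters had a median GC content of 58.6% and 13 CpG, against 54.8% and 9 CpG over all promoters. These matches describe letters in a window, and binding was not measured.

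Of the 53 members, 45 passed the filter on low counts and were tested. The other 8 were Slc25a6, Slc25a18, Slc25a23, Slc25a31, Slc25a52, Slc25a53, Ucp1 and Ucp3, none of which reached a group mean of 0.3 CPM. Ucp1, the uncoupling protein of brown fat, had 0, 0 and 0 counts in BNPMT, 3, 3 and 6 counts in SEN and 0, 0 and 0 counts in NC. A library with a count of 0 allows up to 3 counts, here 0.0715 to 0.0961 CPM, which is counting error only. Slc25a23, the third member of the calcium-regulated ATP-Mg/phosphate carriers, had 0 or 1 count in each of the 9 libraries.

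Changes were tested with edgeR's quasi-likelihood F test on all 9 libraries the p-values being adjusted by Benjamini-Hochberg across 14956 genes, and a call means an adjusted p below 0.05. Log2 changes are scaled by trimmed means of M-values (TMM), whereas CPM values are per total count. The scale matters wherever SEN is compared. Scaled by total counts, the tested genes as a whole had a median log2 change of -0.46 (SEN against NC), 0.52 (BNPMT against SEN) and 0.06 (BNPMT against NC). Scaled by TMM, these medians were -0.01, 0.02 and 0.00. A carrier can therefore have a higher CPM in one group and a TMM-scaled log2 change of the opposite sign, and where this touches a called change the case is named beside it. The comparison of SEN with NC and that of BNPMT with SEN share the SEN libraries, and their values are given side by side.

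In SEN against NC, 19 of 45 tested carriers were called higher and 14 lower, or 42.2% and 31.1%, beside 37.6% and 38.5% of all tested genes. In BNPMT against SEN, 19 were called higher and 20 lower, or 42.2% and 44.4%, beside 40.7% and 39.9% of all tested genes. Both splits lie near the background, and the median log2 changes of the carriers, 0.03 and 0.05, lie near those of all genes. With total counts as the scale the splits were 15 higher and 24 lower in SEN against NC, beside 24.5% and 56.9% of all genes, and 26 higher and 10 lower in BNPMT against SEN, beside 57.3% and 25.8%. In BNPMT against NC, 15 carriers were called higher and 5 lower, or 33.3% and 11.1%, beside 26.3% and 26.5% of all tested genes, with a median log2 change of 0.13 against 0.00 over all genes. Without SEN 1 and BNPMT 1 the counts were 19 and 15, 19 and 19, and 16 and 7 in the 3 comparisons. Shares of all tested genes were then 38.5% and 39.8%, 40.7% and 40.2%, and 29.6% and 30.6%. In both comparisons with SEN, carriers changed in both directions, and the map of levels shows which substrates went with which direction.

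**Figure D1:**
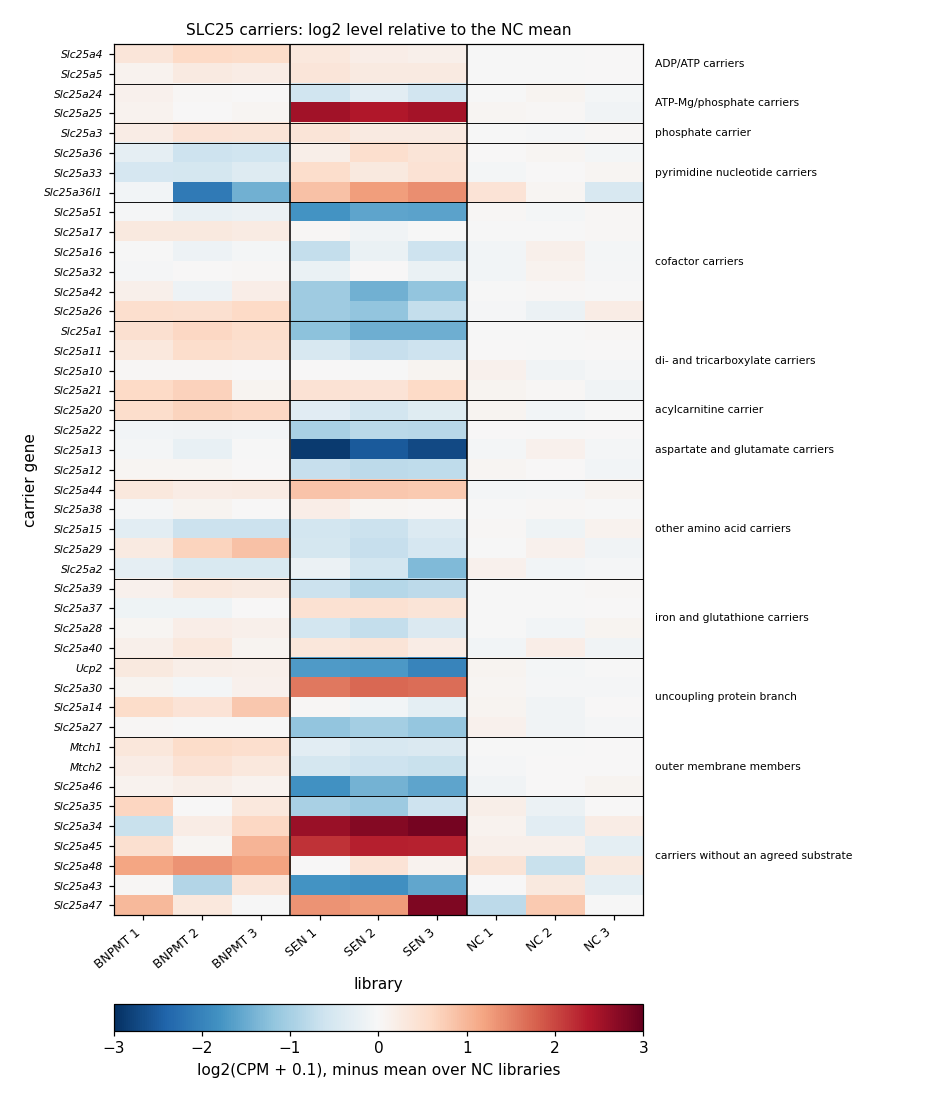
Levels of tested carriers in each library as log2(CPM + 0.1) minus the mean over the 3 NC libraries, grouped by substrate, with red above and blue below that mean and colours saturating at 3. Slc25a25, Slc25a30, Slc25a34 and Slc25a45 are deep red in all 3 SEN libraries, and Slc25a13, Ucp2, Slc25a51, Slc25a46 and Slc25a43 are blue there.

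The carriers that serve ATP synthesis were among the most abundant members. Slc25a4 and Slc25a5 encode ADP/ATP carriers, which exchange matrix ATP for cytosolic ADP, and Slc25a3 encodes the phosphate carrier. Per transcript length, Slc25a4 was the most abundant of all members, at 503 ± 43.9 FPKM (a count scaled by transcript length and library total) in BNPMT, 412 ± 24.0 FPKM in SEN and 353 ± 2.32 FPKM in NC (SD, n = 3 each, as for all means below). Slc25a4, Slc25a3, Mtch1, Slc25a5 and Mtch2, the 5 most abundant members, held 72.1 to 73.9% of the summed FPKM of the family in BNPMT, 77.3 to 78.4% in SEN and 70.8 to 71.0% in NC. The summed family level was 1910 ± 114 FPKM in BNPMT, 1462 ± 66.5 FPKM in SEN and 1491 ± 14.6 FPKM in NC. It was 1.31 times the SEN level in BNPMT, with no overlap of the libraries (exact two-sided permutation p = 0.1, the smallest possible with 3 against 3), and 0.981 times the NC level in SEN (exact p = 0.4). These ratios are per library total, and their direction turns with the scaling: after division by each library's TMM factor the sum averaged 1682 ± 120 in BNPMT, 1824 ± 93.5 in SEN and 1359 ± 10.3 in NC, or 0.922 times the SEN level in BNPMT (exact p = 0.3) and 1.34 times the NC level in SEN (exact p = 0.1). In BNPMT it was 1.28 times the NC level per library total and 1.24 times after that division (exact p = 0.1 for both).

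Slc25a4 had 585, 693 and 670 CPM in BNPMT, 566, 523 and 506 CPM in SEN and 455, 453 and 459 CPM in NC. The 3 groups did not overlap, with BNPMT highest and NC lowest. Its log2 change was 0.68 ± 0.07 (SE, adjusted p = 8.82e-07) in SEN against NC and 0.46 ± 0.07 (adjusted p = 0.000129) in BNPMT against NC. In BNPMT against SEN it was -0.21 ± 0.07 (adjusted p = 0.012) under TMM and 0.29 with total counts, so its direction there is set by the scaling. Without SEN 1 that TMM value was -0.16 (adjusted p = 0.0638). Slc25a5 had 200, 223 and 216 CPM in BNPMT, 241, 225 and 223 CPM in SEN and 186, 186 and 187 CPM in NC. BNPMT and SEN touched at 223 CPM, and both lay above NC. It rose in SEN against NC by a log2 change of 0.75 ± 0.06 (adjusted p = 4.61e-08) and was called lower in BNPMT against SEN, at -0.61 ± 0.06 (adjusted p = 3.50e-07), a call lost with total counts (-0.11). In BNPMT against NC it was not called, at 0.15 ± 0.06 (adjusted p = 0.051), but it was called without BNPMT 1 (0.20, adjusted p = 0.00442) or without SEN 1 (0.14, adjusted p = 0.0416). A gene annotated as similar to Slc25a5, RGD1564131, had 53 to 84 counts per library and may share its reads. Slc25a3 had 452, 512 and 502 CPM in BNPMT, 509, 466 and 468 CPM in SEN and 385, 380 and 394 CPM in NC. SEN and BNPMT overlapped, and both lay above NC, with a log2 change of 0.77 ± 0.06 (adjusted p = 7.37e-08) in SEN against NC and 0.29 ± 0.06 (adjusted p = 0.00161) in BNPMT against NC, the smaller of which was 0.00 once the trend with transcript length was taken out. In BNPMT against SEN its log2 change was -0.48 under TMM and 0.02 with total counts.

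A ratio of a pair of carriers within a library is the same under every scaling that uses a single factor per library. Removal of the trend with length is no such scaling, and it was not applied to these ratios. The ratio of Slc25a4 to Slc25a5 was 2.72, 2.88 and 2.89 in BNPMT, 2.19, 2.16 and 2.11 in SEN and 2.27, 2.27 and 2.29 in NC, in units of FPKM. The groups did not overlap, and each pair of groups gave the smallest exact p of 0.1. Such ratios were computed for 9 pairs of carriers in 3 comparisons, and with 3 libraries a group none could pass 0.05 before or after adjustment. For ATP synthase, the enzyme these carriers serve, 16 genes were listed, its inhibitor Atp5if1 included. In SEN against NC 6 were called higher and 4 lower, beside 37.6% and 38.5% of all tested genes. In BNPMT against SEN 13 and 0 were called, beside 40.7% and 39.9%, and in BNPMT against NC 16 and 0, beside 26.3% and 26.5%. Once the trend with length was removed, the counts were 4 higher and 10 lower, 11 and 3, and 9 and 0 in the same order. The shares of all tested genes were then 40.7% and 38.2%, 39.8% and 41.8%, and 23.5% and 22.5%. Scaled by total counts the ATP synthase counts were 1 and 10, 16 and 0, and 16 and 0. On that scale 24.5% and 56.9%, 57.3% and 25.8%, and 30.2% and 22.5% of all tested genes were called. Among its subunits, Atp5f1d averaged 211 ± 27.5 CPM in BNPMT, 48.4 ± 1.39 CPM in SEN and 122 ± 2.11 CPM in NC, and Atp5mc2 averaged 301 ± 39.4, 222 ± 19.9 and 196 ± 5.07 CPM. Atp5f1e averaged 98.0 ± 14.9 CPM in BNPMT, 74.5 ± 8.61 CPM in SEN and 62.4 ± 4.36 CPM in NC.

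The ATP-Mg/phosphate carriers, which adjust the adenine nucleotide content of the matrix in response to calcium, moved apart. Slc25a25 had 26.2, 24.4 and 25.4 CPM in BNPMT, 140, 130 and 138 CPM in SEN and 25.5, 24.8 and 22.8 CPM in NC. The SEN mean was 5.58 times the NC mean, with every SEN library far above all others, and BNPMT and NC libraries overlapped. The TMM-scaled log2 change was 2.93 ± 0.06 (adjusted p = 9.35e-14) in SEN against NC and -2.93 ± 0.06 (adjusted p = 8.89e-14) in BNPMT against SEN. In BNPMT against NC it was not called. Over 20 alternatives of the processing the 2 called changes ranged between 2.26 and 3.02 and between -2.99 and -2.22. Slc25a24, its paralog, had 82.7, 77.9 and 76.2 CPM in BNPMT, 49.9, 60.6 and 51.3 CPM in SEN and 75.2, 80.1 and 73.0 CPM in NC, and was called in none of the 3 comparisons under TMM. Its SEN libraries lay below both other groups in CPM, and with total counts it was called lower in SEN against NC (-0.50, adjusted p = 3.23e-05) and higher in BNPMT against SEN (0.55, adjusted p = 1.11e-05). The ratio of Slc25a25 to Slc25a24 was 0.237, 0.235 and 0.249 in BNPMT, 2.09, 1.60 and 2.02 in SEN and 0.253, 0.232 and 0.233 in NC. Slc25a25 was thus the more abundant transcript per length in every SEN library and the less abundant in every other library.

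**Figure D2:**
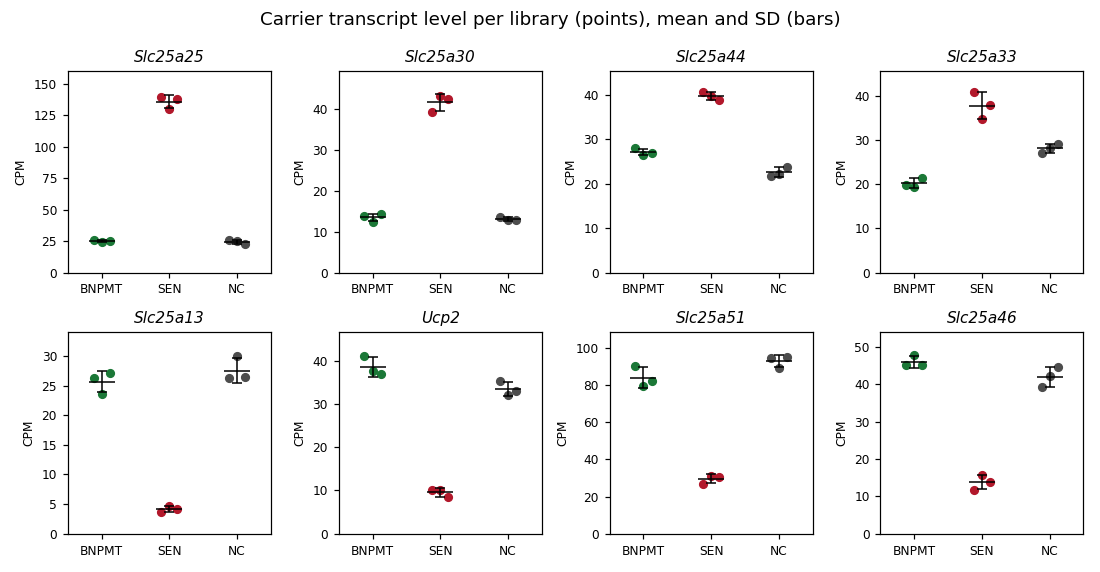
CPM of 8 carriers in each library (points), with the group mean and SD as lines, for BNPMT, SEN and NC. SEN libraries stand above both other groups for Slc25a25, Slc25a30, Slc25a44 and Slc25a33, and below both for Slc25a13, Ucp2, Slc25a51 and Slc25a46.

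All 3 pyrimidine nucleotide carriers were called higher in SEN against NC, lower in BNPMT against SEN and lower in BNPMT against NC. Of all tested genes, 37.6%, 39.9% and 26.5% were called in these directions. Pyrimidine nucleotide carriers supply the matrix with the pyrimidine nucleotides used to copy and transcribe mitochondrial DNA. Slc25a33 had 19.8, 19.4 and 21.5 CPM in BNPMT, 40.8, 34.7 and 37.9 CPM in SEN and 27.0, 28.3 and 29.1 CPM in NC. The 3 groups did not overlap, with SEN highest and BNPMT lowest. Its log2 changes were 0.88 ± 0.08 in SEN against NC (adjusted p = 1.18e-07), -1.41 ± 0.08 in BNPMT against SEN (adjusted p = 9.24e-10) and -0.53 ± 0.08 in BNPMT against NC (adjusted p = 9.43e-05). Slc25a36 had 67.4, 52.7 and 53.7 CPM in BNPMT, 91.7, 116 and 107 CPM in SEN and 82.4, 84.6 and 78.1 CPM in NC, in the same order of groups and again without overlap. Its log2 changes were 0.81 ± 0.09, -1.36 ± 0.10 and -0.55 ± 0.09 in the 3 comparisons (adjusted p = 2.67e-06, 1.28e-08 and 0.000339). BNPMT 1 and SEN 1 were the libraries nearest to NC for Slc25a36, whose transcript is the longest of the tested carriers (8521 bases).

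The related Slc25a36l1 was scarce, with 1.12, 0.199 and 0.381 CPM in BNPMT, 2.27, 3.01 and 3.31 CPM in SEN and 1.62, 1.26 and 0.836 CPM in NC, and may share reads with Slc25a36. It was called higher in SEN against NC (log2 change 1.67 ± 0.38, adjusted p = 0.00119) and lower in BNPMT against SEN (-2.79 ± 0.41, adjusted p = 2.70e-05), while its call in BNPMT against NC (-1.13 ± 0.44, adjusted p = 0.0463) held in 10 of 20 alternatives. It was lost without any 1 of BNPMT 2, BNPMT 3, SEN 2, SEN 3, NC 1 and NC 2, at -1.13 to -0.77. The ratio of Slc25a36 to Slc25a33 overlapped between all 3 groups, at 0.464 ± 0.0760 in BNPMT, 0.452 ± 0.0880 in SEN and 0.470 ± 0.0317 in NC (exact p = 0.8 to 1). Once the trend with length was removed, their log2 changes in BNPMT against NC were unlike, at -0.22 for Slc25a36 and -0.84 for Slc25a33.

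Among the carriers of cofactors, 2 of 7 tested were called higher and 4 lower in SEN against NC, beside 37.6% and 38.5% of all tested genes. In BNPMT against SEN 4 were called higher and 2 lower, beside 40.7% and 39.9%. The signs of Slc25a17 and Slc25a32 turned with total counts in both comparisons. Slc25a51, which brings NAD+ into mitochondria, had 90.2, 79.3 and 82.2 CPM in BNPMT, 26.7, 31.2 and 30.5 CPM in SEN and 94.4, 89.3 and 95.0 CPM in NC. SEN libraries lay at about 0.317 times the NC mean without overlap, and BNPMT 1 reached into the NC range. Its log2 change was -1.21 ± 0.07 (adjusted p = 1.75e-09) in SEN against NC and 1.01 ± 0.07 (adjusted p = 9.50e-09) in BNPMT against SEN. The call in BNPMT against NC, at -0.20 ± 0.07 (adjusted p = 0.022), held in 12 of 20 alternatives and was lost without BNPMT 2, BNPMT 3, NC 1 or NC 3, at -0.19 to -0.17. The related Slc25a52, also an NAD+ carrier in human cells, stayed below 0.33 CPM in every library, and a second related gene, LOC100910864, had 18 to 122 counts, so reads may be split among them.

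Slc25a26, the carrier of the methyl donor S-adenosylmethionine, had 7.70, 7.58 and 8.24 CPM in BNPMT, 2.55, 2.34 and 3.28 CPM in SEN and 5.27, 4.82 and 6.33 CPM in NC. The groups did not overlap, with log2 changes of -0.55 ± 0.15 in SEN against NC (adjusted p = 0.00467), 1.02 ± 0.15 in BNPMT against SEN (adjusted p = 2.32e-05) and 0.47 ± 0.14 in BNPMT against NC (adjusted p = 0.0113), the last of which was 0.38 (adjusted p = 0.0589) without NC 2. Slc25a42, a coenzyme A carrier, averaged 8.22 ± 1.07 CPM in BNPMT, 3.28 ± 0.449 CPM in SEN and 7.80 ± 0.116 CPM in NC, and was called lower in SEN against NC and higher in BNPMT against SEN.

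Slc25a32, the folate carrier of the mitochondrion, had 15.6, 15.9 and 16.2 CPM in BNPMT, 13.9, 16.0 and 13.9 CPM in SEN and 14.9, 17.2 and 15.6 CPM in NC, with all groups overlapping. It was called higher in SEN against NC at 0.33 ± 0.09 (adjusted p = 0.00324) and lower in BNPMT against SEN at -0.38 ± 0.09 (adjusted p = 0.00106), but both signs turned with total counts, to -0.12 and 0.13, so neither direction can be given. In folate metabolism, Aldh1l2, Shmt2 and Mthfd1l, enzymes of the mitochondrial one-carbon pathway, averaged 88.3 ± 4.30, 161 ± 4.28 and 38.2 ± 1.03 CPM in BNPMT, 48.7 ± 0.662, 74.0 ± 4.72 and 23.2 ± 0.772 CPM in SEN and 175 ± 0.442, 212 ± 6.76 and 60.5 ± 1.53 CPM in NC. Of 8 folate enzymes, 3 were called higher and 3 lower in SEN against NC, beside 37.6% and 38.5% of all tested genes. In BNPMT against SEN 4 and 2 were called, beside 40.7% and 39.9%, and in BNPMT against NC 2 and 4, beside 26.3% and 26.5%. With total counts the first splits were 1 and 5, and 6 and 2, beside 24.5% and 56.9%, and 57.3% and 25.8%. The peroxisomal carrier Slc25a17, which carries coenzyme A and related cofactors, averaged 55.9 ± 0.803 CPM in BNPMT, 45.3 ± 2.18 CPM in SEN and 46.2 ± 0.790 CPM in NC. It was called higher in SEN against NC (0.43) and lower in BNPMT against SEN (-0.20), signs that turned with total counts, to -0.03 and 0.30. Slc25a16 averaged 20.8 ± 1.06, 15.4 ± 3.01 and 21.9 ± 1.94 CPM in the 3 groups and was not called in any comparison under TMM. With total counts it was called lower in SEN against NC (-0.51, adjusted p = 0.00123) and higher in BNPMT against SEN (0.44, adjusted p = 0.00356), where the TMM value was -0.07.

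**Figure D3:**
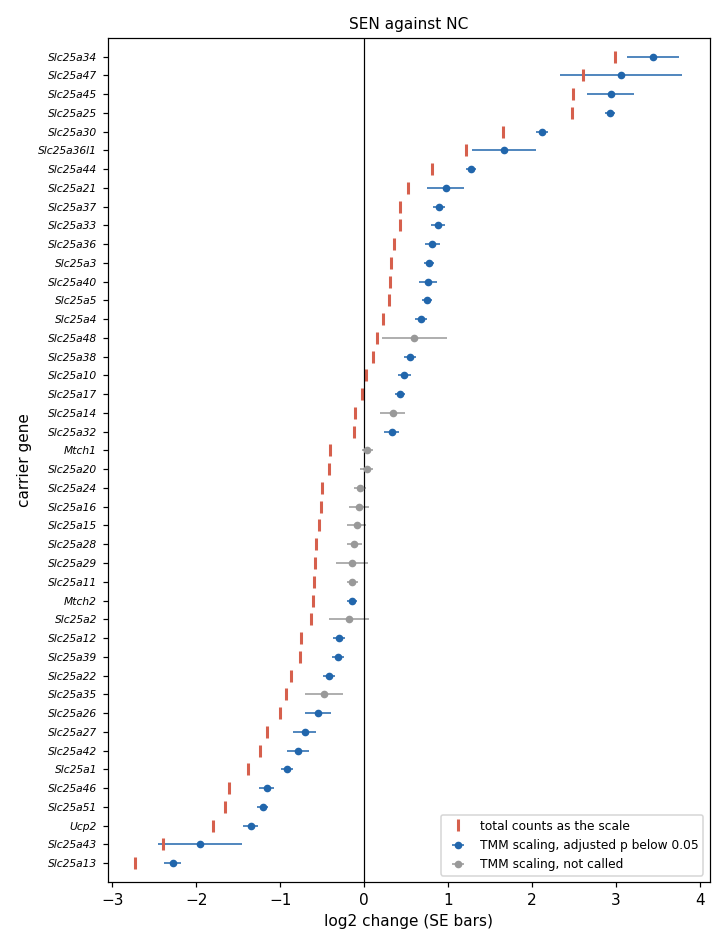
Log2 changes of tested carriers in SEN against NC, as points with SE bars under TMM scaling (blue where the adjusted p is below 0.05, grey where it is not) and as red ticks with total counts as the scale. Each tick lies to the left of its point, and among the called carriers those of Slc25a17 and Slc25a32 lie across 0 from it.

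Among the carriers of di- and tricarboxylates, Slc25a1 exports citrate, which feeds cytosolic acetyl-CoA for lipid synthesis and acetylation. It had 148, 162 and 153 CPM in BNPMT, 45.3, 38.0 and 38.4 CPM in SEN and 105, 104 and 108 CPM in NC. The groups did not overlap, with BNPMT highest and SEN lowest. The log2 changes were -0.92 ± 0.07 in SEN against NC (adjusted p = 5.93e-08), 1.42 ± 0.07 in BNPMT against SEN (adjusted p = 5.83e-10) and 0.50 ± 0.07 in BNPMT against NC (adjusted p = 8.57e-05), and all 3 calls held in each of 20 alternatives, the last at 0.24 once the trend with length was removed. Slc25a11, the carrier that exchanges oxoglutarate for malate, had 107, 125 and 120 CPM in BNPMT, 61.7, 53.3 and 56.6 CPM in SEN and 87.3, 85.2 and 87.1 CPM in NC. Its CPM was likewise highest in BNPMT and lowest in SEN without overlap, but under TMM the log2 change of -0.14 in SEN against NC was not called (adjusted p = 0.0917), while those in BNPMT against SEN (0.53 ± 0.07, adjusted p = 1.35e-05) and BNPMT against NC (0.39 ± 0.07, adjusted p = 0.000605) were. Once the trend with length was removed, these were 0.25 and 0.14. The change in SEN against NC was called without SEN 1 (-0.22, adjusted p = 0.0201) or without BNPMT 1 (-0.15, adjusted p = 0.0233).

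Slc25a10, the dicarboxylate carrier, had 18.0, 18.0 and 17.9 CPM in BNPMT, 17.8, 17.4 and 18.7 CPM in SEN and 19.2, 16.5 and 17.3 CPM in NC. The groups overlapped throughout. Its calls in SEN against NC (0.48 ± 0.08, adjusted p = 6.13e-05) and BNPMT against SEN (-0.51 ± 0.08, adjusted p = 3.15e-05) were lost with total counts, where both changes were within 0.02 of 0. Slc25a21, the oxoadipate carrier, averaged 1.69 ± 0.375 CPM in BNPMT, 1.69 ± 0.126 CPM in SEN and 1.18 ± 0.0769 CPM in NC. It was called higher in SEN against NC in each of 20 alternatives, and its call in BNPMT against SEN held in 5 of 20, being lost without any 1 of BNPMT 3 and the 6 SEN and NC libraries (-0.55 to -0.33).

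The 3 tested aspartate and glutamate carriers, Slc25a12, Slc25a13 and Slc25a22, were called lower in SEN against NC and higher in BNPMT against SEN. Of all tested genes, 38.5% and 40.7% were called in these directions. Slc25a12 and Slc25a13 encode aspartate-glutamate exchangers, the step of the malate-aspartate shuttle that carries reducing equivalents from the cytosol into mitochondria. Slc25a13 had 26.3, 23.6 and 27.1 CPM in BNPMT, 3.67, 4.71 and 4.10 CPM in SEN and 26.2, 29.9 and 26.5 CPM in NC. SEN libraries lay at 0.151 times the NC mean, far below the range of both other groups, which overlapped. Slc25a13 had a log2 change of -2.28 ± 0.10 (adjusted p = 1.54e-10) in SEN against NC and 2.13 ± 0.10 (adjusted p = 2.84e-10) in BNPMT against SEN. Slc25a12 had 21.6, 21.5 and 20.9 CPM in BNPMT, 12.7, 11.9 and 12.1 CPM in SEN and 21.4, 20.9 and 19.6 CPM in NC. Slc25a12 had a log2 change of -0.30 ± 0.07 in SEN against NC (adjusted p = 0.00195), a call lost once the trend with length was removed, and 0.30 ± 0.07 in BNPMT against SEN (adjusted p = 0.0019). The ratio of Slc25a12 to Slc25a13 was 0.662, 0.735 and 0.624 in BNPMT, 2.79, 2.04 and 2.39 in SEN and 0.659, 0.565 and 0.597 in NC, so that Slc25a13 was the more abundant of the pair per length outside SEN and Slc25a12 within it. Slc25a22, the glutamate carrier, had 29.3, 29.2 and 29.4 CPM in BNPMT, 15.9, 17.8 and 17.5 CPM in SEN and 31.2, 30.7 and 31.7 CPM in NC. SEN lay lowest without overlap, with a log2 change of -0.42 ± 0.07 (adjusted p = 5.07e-05) against NC and 0.28 ± 0.07 (adjusted p = 0.00152) for BNPMT against SEN.

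The malate-aspartate shuttle enzymes tested were Got1, Got2, Mdh1 and Mdh2. In SEN against NC 0 were called higher and 1 lower, beside 37.6% and 38.5% of all tested genes. In BNPMT against SEN 4 were called higher, beside 40.7%, and in BNPMT against NC 3, beside 26.3%. With total counts all 4 were lower in SEN against NC, beside 56.9% of all tested genes. Got1, the cytosolic aspartate aminotransferase, averaged 54.3 ± 4.10 CPM in BNPMT, 25.1 ± 1.23 CPM in SEN and 48.7 ± 1.89 CPM in NC. Got2, its mitochondrial counterpart, averaged 320 ± 6.17, 171 ± 7.86 and 222 ± 1.07 CPM, and Mdh1 203 ± 17.5, 92.1 ± 7.41 and 133 ± 2.75 CPM.

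**Figure D4:**
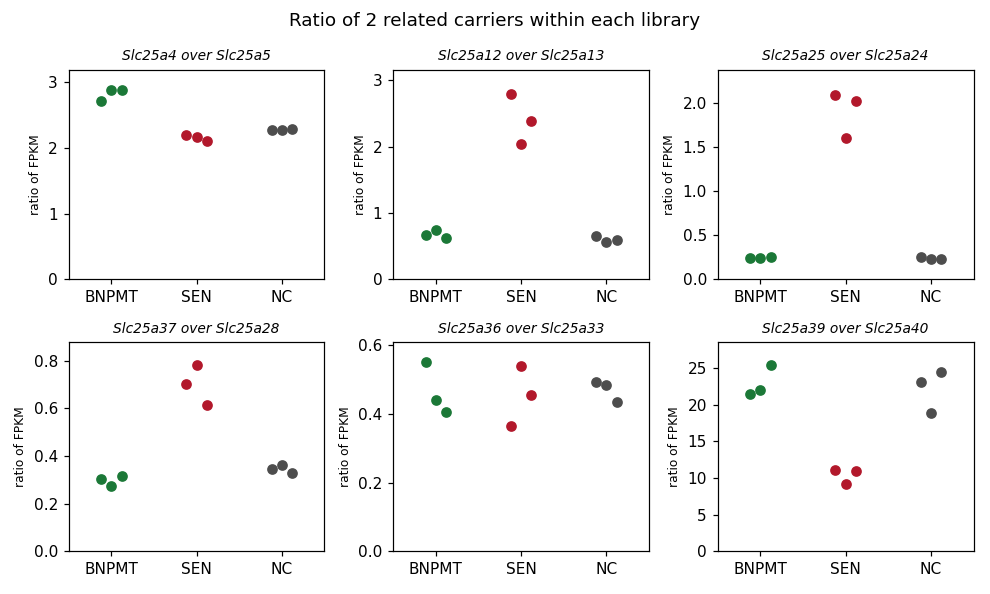
Ratio of FPKM of 6 pairs of related carriers within each library (points), for BNPMT, SEN and NC, on linear axes that start at 0. SEN libraries stand apart for Slc25a12 over Slc25a13, Slc25a25 over Slc25a24, Slc25a37 over Slc25a28 and Slc25a39 over Slc25a40, BNPMT libraries are highest for Slc25a4 over Slc25a5, and all groups overlap for Slc25a36 over Slc25a33.

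Slc25a20, the carrier that moves acylcarnitines into the matrix for fatty acid oxidation, had 59.5, 65.5 and 64.1 CPM in BNPMT, 32.7, 28.1 and 32.1 CPM in SEN and 43.7, 39.2 and 41.3 CPM in NC. The groups did not overlap, with BNPMT highest. Slc25a20 had a log2 change of 0.52 ± 0.08 (adjusted p = 2.10e-05) in BNPMT against SEN and 0.56 ± 0.07 (adjusted p = 5.04e-05) in BNPMT against NC. Once the trend with length was removed, these were 0.25 and 0.33. In SEN against NC it was not called under TMM (0.03) and was -0.42 with total counts. Cpt2, the enzyme that acts on its cargo on the matrix side, averaged 23.5 ± 1.60 CPM in BNPMT, 1.98 ± 0.160 CPM in SEN and 19.8 ± 1.15 CPM in NC, with a log2 change of -2.87 ± 0.11 in SEN against NC (adjusted p = 2.68e-11) and 3.06 ± 0.11 in BNPMT against SEN (adjusted p = 1.12e-11). Crat, carnitine acetyltransferase, averaged 79.9 ± 0.767 CPM in BNPMT, 30.8 ± 1.79 CPM in SEN and 67.4 ± 0.703 CPM in NC. Cpt1b, the muscle form of the outer-membrane palmitoyltransferase, averaged 4.32 ± 0.638, 6.23 ± 0.535 and 3.84 ± 0.315 CPM. Of 5 carnitine shuttle enzymes, 1 was called higher and 2 lower in SEN against NC, beside 37.6% and 38.5% of all tested genes. In BNPMT against SEN 4 and 1 were called, beside 40.7% and 39.9%, and in BNPMT against NC 3 and 0, beside 26.3% and 26.5%. With total counts the first split was 1 and 4, beside 24.5% and 56.9% of all tested genes.

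Among the other amino acid carriers, Slc25a44, which carries branched-chain amino acids, had 28.0, 26.5 and 26.9 CPM in BNPMT, 40.7, 39.7 and 38.8 CPM in SEN and 21.8, 22.2 and 23.8 CPM in NC. The groups did not overlap, with SEN highest and NC lowest. Slc25a44 had a log2 change of 1.27 ± 0.06 in SEN against NC (adjusted p = 4.14e-10), -1.05 ± 0.06 in BNPMT against SEN (adjusted p = 2.16e-09) and 0.21 ± 0.06 in BNPMT against NC (adjusted p = 0.0115), the last of which was lost without NC 1 (0.19) or NC 2 (0.20). Slc25a38, which supplies glycine for heme synthesis, averaged 19.7 ± 0.766 CPM in BNPMT, 20.7 ± 1.28 CPM in SEN and 19.4 ± 0.393 CPM in NC, and its calls in both comparisons with SEN were lost with total counts. Slc25a15, an ornithine carrier, averaged 9.14 ± 1.28 CPM in BNPMT, 9.08 ± 0.808 CPM in SEN and 13.2 ± 1.12 CPM in NC, and was called lower in BNPMT against NC at -0.58 ± 0.11 (adjusted p = 0.000672). Its call in BNPMT against SEN, at -0.49, turned to 0.01 with total counts. Slc25a29, a carrier of basic amino acids, averaged 4.41 ± 0.931, 1.89 ± 0.137 and 2.85 ± 0.245 CPM in the 3 groups and was called higher in BNPMT against both others, against NC at 0.58 ± 0.18, a call lost without BNPMT 3 (0.43) or NC 3 (0.52). Slc25a2, another ornithine carrier, averaged 2.28 ± 0.199, 1.94 ± 0.751 and 3.04 ± 0.260 CPM and was not called under TMM. Its value in BNPMT against SEN was -0.28 under TMM and 0.23 with total counts.

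The mitoferrins, which import iron for heme and iron-sulfur cluster synthesis, differed from each other. Slc25a37, the mitoferrin best known from red cell precursors, had 16.9, 16.9 and 18.6 CPM in BNPMT, 25.3, 25.1 and 24.1 CPM in SEN and 18.3, 18.2 and 18.7 CPM in NC. SEN stood above both other groups, which overlapped. Its log2 change was 0.89 ± 0.07 (adjusted p = 4.90e-08) in SEN against NC and -1.01 ± 0.07 (adjusted p = 1.06e-08) in BNPMT against SEN. The erythroid genes Hba-a1 and Slc4a1 averaged 0 and 0 CPM in BNPMT, 0.00868 and 0.1 CPM in SEN and 0 and 0 CPM in NC. Slc25a28, the other mitoferrin, had 20.3, 22.4 and 21.5 CPM in BNPMT, 13.2, 11.8 and 14.3 CPM in SEN and 19.3, 18.3 and 20.7 CPM in NC, and was not called in any comparison under TMM on all libraries. In BNPMT against SEN it was 0.20, and it was called without BNPMT 1 (0.26), SEN 3 (0.27) or NC 2 (0.21). With total counts it was called lower in SEN against NC (-0.57) and higher in BNPMT against SEN (0.70). The ratio of Slc25a37 to Slc25a28 was 0.299 ± 0.0213 in BNPMT, 0.698 ± 0.0837 in SEN and 0.347 ± 0.0174 in NC, with no overlap between groups (exact p = 0.1 for each pair, the smallest possible).

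Slc25a39 and Slc25a40 encode carriers that bring glutathione into mitochondria. Slc25a39 had 162, 184 and 180 CPM in BNPMT, 94.4, 81.6 and 86.1 CPM in SEN and 147, 146 and 152 CPM in NC, without overlap of the groups. Its log2 change was -0.31 ± 0.07 (adjusted p = 0.00123) in SEN against NC, 0.50 ± 0.07 (adjusted p = 1.52e-05) in BNPMT against SEN and 0.20 ± 0.07 (adjusted p = 0.0304) in BNPMT against NC, the last of which held in 13 of 20 alternatives and was lost without any 1 of BNPMT 2, BNPMT 3, NC 1, NC 2 and NC 3 (0.15 to 0.20). Slc25a40 averaged 10.0 ± 0.857 CPM in BNPMT, 11.0 ± 0.705 CPM in SEN and 8.83 ± 1.11 CPM in NC. It was called higher in SEN against NC, at 0.76 ± 0.11 (adjusted p = 2.62e-05), and lower in BNPMT against SEN, at -0.63 ± 0.11 (adjusted p = 0.000122), a call lost with total counts. The ratio of Slc25a39 to Slc25a40 was 23.0 ± 2.12 in BNPMT, 10.5 ± 1.08 in SEN and 22.2 ± 2.90 in NC, with SEN below the range of both other groups. Of 13 genes of iron-sulfur and heme synthesis, 4 were called higher and 4 lower in SEN against NC, beside 37.6% and 38.5% of all tested genes. In BNPMT against SEN 9 and 2 were called, beside 40.7% and 39.9%, and in BNPMT against NC 10 and 0, beside 26.3% and 26.5%. With total counts the split was 3 and 8 in SEN against NC, beside 24.5% and 56.9% of all tested genes. Once the trend with length was removed, the split was 6 and 4 in BNPMT against SEN, beside 39.8% and 41.8%. Alas1, the first enzyme of heme synthesis, averaged 34.2 ± 2.30 CPM in BNPMT, 39.3 ± 0.924 CPM in SEN and 23.4 ± 0.338 CPM in NC, and Nfs1, the cysteine desulfurase, 33.9 ± 2.07, 44.6 ± 1.60 and 28.7 ± 0.716 CPM. Lyrm4, a partner of Nfs1, averaged 12.2 ± 0.448, 4.09 ± 0.125 and 10.2 ± 0.914 CPM.

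Within the uncoupling protein branch of the family, relatives changed in opposite directions. Ucp2, which dissipates the proton gradient and exports carboxylates, had 41.1, 37.5 and 36.9 CPM in BNPMT, 10.2, 10.1 and 8.43 CPM in SEN and 35.3, 32.1 and 32.9 CPM in NC. SEN lay at 0.287 times the NC mean, and BNPMT lay just above NC without overlap, a difference that was not called. The log2 change of Ucp2 was -1.35 ± 0.09 (adjusted p = 5.52e-09) in SEN against NC and 1.50 ± 0.09 (adjusted p = 1.49e-09) in BNPMT against SEN. Slc25a30, a relative first described in kidney, had 13.8, 12.5 and 14.3 CPM in BNPMT, 39.3, 43.3 and 42.5 CPM in SEN and 13.6, 12.9 and 12.9 CPM in NC. SEN lay above both other groups, which overlapped, with a log2 change of 2.12 ± 0.07 (adjusted p = 9.65e-12) in SEN against NC and -2.12 ± 0.07 (adjusted p = 8.23e-12) in BNPMT against SEN. The ratio of Slc25a30 to Ucp2 was 0.145, 0.144 and 0.168 in BNPMT, 1.67, 1.85 and 2.18 in SEN and 0.167, 0.174 and 0.170 in NC. Slc25a14 and Slc25a27, relatives best known from brain, averaged 5.88 ± 0.858 and 4.40 ± 0.0881 CPM in BNPMT, 3.56 ± 0.427 and 1.96 ± 0.133 CPM in SEN and 3.86 ± 0.283 and 4.39 ± 0.370 CPM in NC. Slc25a27 was called lower in SEN against NC and higher in BNPMT against SEN. Slc25a14 was called under TMM only in BNPMT against NC, at 0.56 ± 0.14 (adjusted p = 0.00512), its value in SEN against NC being 0.34 under TMM and -0.11 with total counts, and differences between its calls in the 3 comparisons were not tested.

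The 3 outer membrane members were called higher in BNPMT against SEN, beside 40.7% of all tested genes. Mtch1 and Mtch2 were also called higher in BNPMT against NC, beside 26.3% of all tested genes. Mtch2 inserts helical proteins into the outer membrane and binds the apoptosis protein BID, Mtch1 is its close relative, and Slc25a46 takes part in mitochondrial fission and lipid transfer. Mtch1 had 493, 564 and 545 CPM in BNPMT, 310, 278 and 285 CPM in SEN and 386, 382 and 393 CPM in NC. Mtch2 had 192, 220 and 205 CPM in BNPMT, 113, 107 and 103 CPM in SEN and 160, 165 and 166 CPM in NC. In both genes the CPM was highest in BNPMT and lowest in SEN without overlap. Under TMM the log2 change in BNPMT against SEN was 0.37 ± 0.07 for Mtch1 (adjusted p = 0.000122) and 0.43 ± 0.06 for Mtch2 (adjusted p = 2.76e-05), and in BNPMT against NC it was 0.41 ± 0.07 (adjusted p = 0.00017) and 0.28 ± 0.06 (adjusted p = 0.00246). These 4 calls held in each of 20 alternatives, but once the trend with length was removed the values were 0.10 and 0.21 in BNPMT against SEN and 0.19 and 0.17 in BNPMT against NC. In SEN against NC, Mtch1 was not called under TMM (0.04) and was -0.41 with total counts, and the Mtch2 call at -0.15 ± 0.06 (adjusted p = 0.044) held in 11 of 20 alternatives and was lost without SEN 2, SEN 3, NC 2 or NC 3 (-0.16 to -0.13). The ratio of Mtch1 to Mtch2 was 3.40 ± 0.0625 in BNPMT, 3.54 ± 0.110 in SEN and 3.10 ± 0.0648 in NC, with NC below both other groups.

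Slc25a46 had 45.2, 47.7 and 45.0 CPM in BNPMT, 11.8, 15.6 and 13.9 CPM in SEN and 39.2, 42.1 and 44.6 CPM in NC. SEN lay at 0.329 times the NC mean, and BNPMT lay above NC by a margin that was not called. For Slc25a46 the log2 change was -1.16 ± 0.09 (adjusted p = 5.04e-08) in SEN against NC and 1.24 ± 0.09 (adjusted p = 2.08e-08) in BNPMT against SEN, and both calls held in each of 20 alternatives.

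**Figure D5:**
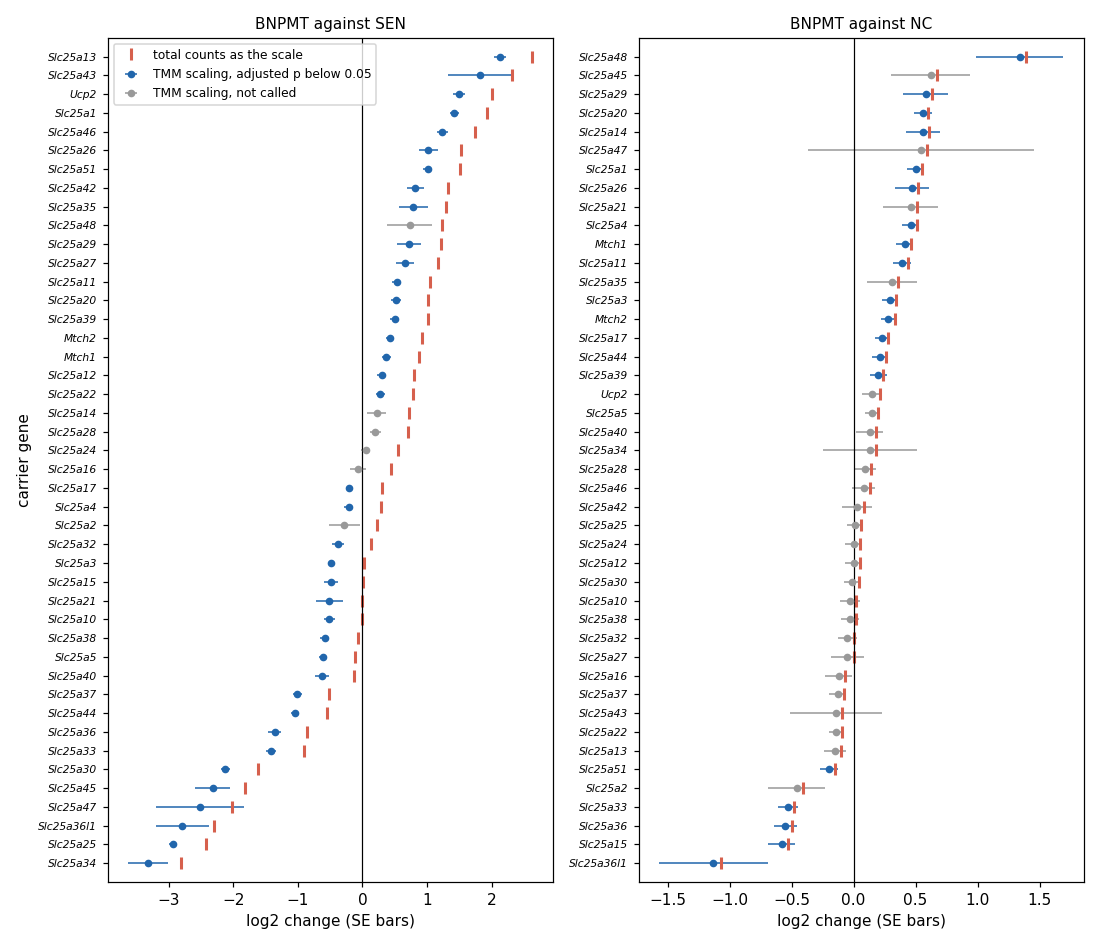
Log2 changes of tested carriers in BNPMT against SEN (left) and BNPMT against NC (right), as points with SE bars under TMM scaling (blue where the adjusted p is below 0.05, grey where it is not) and as red ticks with total counts as the scale. On the left the ticks lie to the right of the points by about the shift of 0.52 seen over all genes, and on the right points and ticks nearly coincide.

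The remaining carriers have no settled or only recently proposed substrates and were scarce. Slc25a34 had 0.215, 0.484 and 0.667 CPM in BNPMT, 2.89, 3.24 and 3.53 CPM in SEN and 0.435, 0.296 and 0.478 CPM in NC, a log2 change of 3.44 ± 0.31 in SEN against NC (adjusted p = 2.39e-07) and -3.32 ± 0.31 in BNPMT against SEN (adjusted p = 2.44e-07). Slc25a45 had 0.646, 0.456 and 0.977 CPM in BNPMT, 2.29, 2.60 and 2.54 CPM in SEN and 0.493, 0.494 and 0.334 CPM in NC, with log2 changes of 2.94 ± 0.28 (adjusted p = 4.29e-07) and -2.32 ± 0.27 (adjusted p = 2.12e-06) in the same comparisons. Both had SEN libraries far above all others, and their BNPMT and NC libraries overlapped. Slc25a47, a carrier best known from liver, had 0.239, 0.114 and 0.0715 CPM in BNPMT, 0.339, 0.32 and 1.10 CPM in SEN and 0, 0.198 and 0.0716 CPM in NC. It was called higher in SEN against NC and lower in BNPMT against SEN, with SEN 3 far above the other SEN libraries. Slc25a43 averaged 0.572 ± 0.266 CPM in BNPMT, 0.114 ± 0.0241 CPM in SEN and 0.617 ± 0.144 CPM in NC and was called lower in SEN against NC and higher in BNPMT against SEN. Slc25a48 averaged 0.929 ± 0.0599, 0.396 ± 0.0751 and 0.355 ± 0.159 CPM and was called under TMM only in BNPMT against NC. Its log2 change there, 1.34 ± 0.35 (adjusted p = 0.0055), was the largest rise of a carrier under TMM and rested on 16, 7 and 18 counts in NC. With total counts Slc25a48 was also called higher in BNPMT against SEN (1.23, adjusted p = 0.00468). Slc25a35 averaged 2.75 ± 0.631, 1.12 ± 0.209 and 2.15 ± 0.278 CPM and was called higher in BNPMT against SEN, at 0.79 ± 0.22 (adjusted p = 0.00485), or 0.57 (adjusted p = 0.0603) without SEN 1 and BNPMT 1.

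In BNPMT against NC the carriers called higher included Slc25a48, Slc25a29, Slc25a20, Slc25a14, Slc25a1, Slc25a26, Slc25a4, Mtch1, Slc25a11, Slc25a3, Mtch2, Slc25a17, Slc25a44 and Slc25a39, and those called lower were Slc25a36l1, Slc25a15, Slc25a36, Slc25a33 and Slc25a51. Transcript length went with direction in this comparison: the 15 higher carriers had a median length of 1889 bases and the 5 lower ones of 4412 bases, beside 1920 and 5328 bases for all genes called higher and lower. Tested carriers were shorter than the tested genes as a whole, with a median of 2517 against 3329 bases. After removal of each library's trend with length, 14 carriers were called higher and 5 lower in BNPMT against NC, beside 23.5% and 22.5% of all genes. After that removal Slc25a4 was at 0.12, Slc25a14 at 0.36, Slc25a15 at -0.34, Slc25a33 at -0.84 and Slc25a36 at -0.22. Calls in that comparison held in each of 20 alternatives (19 for Slc25a48, left out by a filter of 1 CPM) for 8 of the 15 higher carriers, namely Mtch1, Mtch2, Slc25a1, Slc25a4, Slc25a11, Slc25a14, Slc25a20 and Slc25a48, and for 3 of the 5 lower ones, namely Slc25a15, Slc25a33 and Slc25a36.

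Carriers reach the inner membrane through TOM receptors, small TIM chaperones and the TIM22 complex. Of 13 genes of this route, 2 were called higher and 9 lower in SEN against NC, beside 37.6% and 38.5% of all tested genes. In BNPMT against SEN 10 and 2 were called, beside 40.7% and 39.9%, and in BNPMT against NC 9 and 0, beside 26.3% and 26.5%. The median log2 changes of the route were -0.45, 0.85 and 0.34, beside -0.01, 0.02 and 0.00 over all tested genes. Scaled by total counts, the splits were 2 and 11, 12 and 0, and 10 and 0. Shares of all tested genes on that scale were 24.5% and 56.9%, 57.3% and 25.8%, and 30.2% and 22.5%. After removal of the trend with length the route split 2 and 10, 10 and 3, and 3 and 0. All tested genes then gave 40.7% and 38.2%, 39.8% and 41.8%, and 23.5% and 22.5%. Agk, a lipid kinase and subunit of the TIM22 complex, averaged 22.8 ± 0.892 CPM in BNPMT, 5.58 ± 1.14 CPM in SEN and 19.5 ± 1.72 CPM in NC. Tomm40, the pore of the outer membrane translocase, averaged 81.3 ± 8.12, 29.5 ± 1.46 and 69.4 ± 1.70 CPM, and the receptor gene Tomm20 259 ± 24.9, 239 ± 26.6 and 185 ± 16.1 CPM. Agk and Tomm40 fell in SEN against NC and rose in BNPMT against SEN, while Tomm20 rose in SEN against NC, and its log2 change in BNPMT against SEN was -0.38 under TMM and 0.12 with total counts.

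Inner membrane transporters outside the SLC25 family gave 4 genes higher and 9 lower of 22 tested in SEN against NC. In BNPMT against SEN they gave 14 and 5, and in BNPMT against NC 9 and 7. Called shares of all tested genes were 37.6% and 38.5%, 40.7% and 39.9%, and 26.3% and 26.5%. With total counts these transporters gave 1 higher and 17 lower in SEN against NC, beside 24.5% and 56.9% of all tested genes. In BNPMT against SEN they then gave 18 and 3, beside 57.3% and 25.8%. Slc8b1, the sodium-calcium exchanger of mitochondria, averaged 23.1 ± 0.661 CPM in BNPMT, 3.29 ± 0.244 CPM in SEN and 14.4 ± 0.935 CPM in NC, with a log2 change of -1.67 ± 0.10 in SEN against NC (adjusted p = 2.03e-09) and 2.30 ± 0.10 in BNPMT against SEN (adjusted p = 5.45e-11). Micu2, a gatekeeper of the calcium uniporter, averaged 73.3 ± 0.512, 22.9 ± 0.445 and 56.1 ± 1.98 CPM in the 3 groups. Ghitm, a calcium-proton exchanger of the inner membrane, averaged 304 ± 11.3 CPM in BNPMT, 449 ± 13.9 CPM in SEN and 322 ± 3.85 CPM in NC and was called higher in SEN against NC.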

How the data were processed

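Per the labels' protocols, RNA was extracted with TRIzol and poly(A) libraries came from a VAHTS Universal V6 kit. The tools HISAT2, fastp and HTSeq, and mRatBN7.2 as the build, come from the submitters' processing notes, without versions or roles. Whether counting used strand, and which annotation it used, is not given in the sources used here. Reads of overlapping genes, or of antisense pairs where strand was not used, cannot be told apart. The authors deposited whole-number counts per gene and an FPKM table. Transcript lengths were computed back from the deposited counts, FPKM and library totals, and none was taken from an annotation. With a single such length per gene, the deposited FPKM equals the count over length and library total (largest relative difference 5.15e-16). The single-sample FPKM files hold the same values as the FPKM table (largest difference 1.02e-07).

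The count test was that of edgeR 4.0.16 under R 4.3.3 (filterByExpr, TMM, quasi-likelihood F test on all 9 libraries, Benjamini-Hochberg adjustment over 14956 genes, threshold 0.05). Every adjusted p-value comes from this test unless another tool or setting, such as total counts or a library left out, is named beside it. In those cases it comes from that other fit. CPM is per total count, and FPKM was used where levels of different genes are compared. The test was checked on counts simulated from the real means with 200 genes changed per comparison. All other genes had the same simulated mean in every group, so the check cannot speak to the scaling between groups. Within groups no library was a duplicate (chi-square per degree of freedom 3.51 to 33.5). Alternatives were DESeq2 size factors or total counts in edgeR, a loess length trend taken out, DESeq2 1.42.0, limma 3.58.1 on log2(FPKM + 1) and log2(FPKM + 0.1), 2 other filters, a fit limited to the pair of groups compared, a fit with a replicate block, and leaving out libraries.

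Values in every library are given for 25 fixed members and those with a mean of at least 1 CPM, an adjusted p below 0.05 and a log2 change of at least 1 either way, 31 in all. Exceptions are Slc25a47 and Ucp1, chosen after their values were seen. Of the other gene lists, up to 3 genes with the smallest adjusted p in SEN against NC were named. The members and lists were chosen with earlier results of these data known. Counts of carriers cover all members, and 1 tested carrier is not reported here by itself.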

Additional observations from a re-analysis of the deposited data

How the results depend on the processing

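Under 20 alternatives, calls held in every one that tested the carrier for 15 of 19 higher and 11 of 14 lower carriers in SEN against NC, 18 of 19 and 10 of 20 in BNPMT against SEN, and 8 of 15 and 3 of 5 in BNPMT against NC. Lower carriers numbered 24 in SEN against NC (14 under TMM) and 10 in BNPMT against SEN (20 under TMM) with total counts, limma on log2(FPKM + 1) and limma on log2(FPKM + 0.1), which all use library totals. In these settings 56.4% to 56.9% and 25.3% to 25.8% of all tested genes were called lower. In BNPMT against NC lower carriers numbered 3 (5 under TMM) with total counts and limma on log2(FPKM + 1), beside 22.5% and 21.7% of all tested genes. On leaving out 1 library they numbered 3 to 6, with 3 without BNPMT 3, beside 21.8% to 28.2% of all tested genes. On leaving out 1 library the counts of higher and lower carriers were 19 to 20 and 13 to 16 in SEN against NC, 19 to 21 and 18 to 20 in BNPMT against SEN, and 11 to 16 higher in BNPMT against NC. Shares of all tested genes were then 36.1% to 38.9% and 36.3% to 39.6%, 38.9% to 40.4% and 38.3% to 40.5%, and 21.3% to 27.8% higher. With a replicate block the counts of carriers were 19 and 13, 19 and 19, and 14 and 4. Shares of all tested genes in that fit were 36.9% and 37.6%, 39.9% and 39.2%, and 24.4% and 24.8%. Deviations of same-numbered libraries correlated at -0.24 to 0.0581 over 9 pairs, so the numbers were not taken to pair samples.

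With total counts, limma on log2(FPKM + 1) and limma on log2(FPKM + 0.1), in that order where values differ, log2 changes of carriers described in full turned sign as follows. In SEN against NC they were -0.41 for Mtch1, -0.03 for Slc25a17, -0.42, -0.40 and -0.42 for Slc25a20, and -0.12, -0.11 and -0.12 for Slc25a32. In BNPMT against SEN they were 0.01, 0.00 and 0.00 for Slc25a15, 0.30 for Slc25a17, 0.02 for Slc25a3, 0.13, 0.11 and 0.12 for Slc25a32, and 0.29 for Slc25a4. Signs also turned in other settings. Mtch1 in SEN against NC was -0.02 with no filter, without SEN 1 and BNPMT 1, and without SEN 1 (range on leaving out 1 library -0.02 to 0.07). Slc25a20 was -0.02 in the same settings and without NC 2 (range -0.02 to 0.09). Slc25a24 was 0.01 with DESeq2 size factors and with DESeq2's test and 0.11 with the length trend taken out in SEN against NC, and -0.02, -0.02 and -0.04 in BNPMT against SEN, where it was also -0.02 without SEN 1 and BNPMT 1. With the length trend taken out, Slc25a28 was -0.07 in BNPMT against SEN, and Slc25a3 and Slc25a5 were 0.00 and -0.21 in BNPMT against NC. That value of Slc25a5 was a call lower (adjusted p = 0.000168). With total counts, among carriers not called under TMM, Slc25a14 was -0.11 in SEN against NC, and Slc25a16 and Slc25a2 were 0.44 and 0.23 in BNPMT against SEN. The summed family level, as FPKM over the TMM factor, an alternative chosen after seeing the data, was 0.922 times SEN in BNPMT and 1.34 times NC in SEN. The causes were not tested. Depth limits the 8 untested carriers, which had at most 14 counts in a library. Among them, Slc25a52 had 3, 1 and 1 counts in BNPMT, 2, 0 and 5 in SEN and 5, 13 and 11 in NC.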
